A study of Mus musculus with 76 samples.

Results

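The mouse mitochondrial genome supplied 37 of the 54232 genes counted in this study. They were chosen as every gene whose symbol begins with mt-, and they are the 37 genes that the GENCODE M21 annotation of build GRCm38 places on the mitochondrial chromosome. They comprise 13 protein genes (7 subunits of complex I, 1 of complex III, 3 of complex IV and 2 of complex V), 2 ribosomal RNA (rRNA) genes and 22 transfer RNA (tRNA) genes. RNA was sequenced from heart, visceral adipose tissue (VFAT) and kidney of male Fox Chase SCID mice (strain CB17/Icr-Prkdcscid/IcrlcoCrl), 12 weeks old. The Prkdc scid mutation, which blocks the maturation of T and B lymphocytes, was carried by every arm. Each tissue had 5 arms. They were partial nephrectomy (PNx) with Lenti-adipo-NaKtide cells (NaKtide cells), PNx with Lenti-adipo-scrambled cells (scrambled cells), PNx with control cells, PNx with no transplant, and sham surgery with no transplant (Sham). NaKtide is a peptide that blocks the kinase Src at the Na/K-ATPase. The 74 samples fell into 15 groups of 5, except VFAT scrambled cells with 4. The labels give neither the type nor the source of the transplanted cells, nor the promoter behind NaKtide. Nor do they say that samples of 1 group are separate animals, and p-values therefore cover no more than the spread of these samples, which may be technical.

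Mitochondrial DNA is a small circle that is transcribed from both strands into long precursors, which are cut, largely at the tRNAs, into messenger, ribosomal and transfer RNAs. Its messages encode core subunits of respiratory complexes I, III and IV and of ATP synthase (complex V), and the remaining subunits come from the nucleus. Heart muscle and the proximal tubule of the kidney are rich in mitochondria, and white fat cells hold fewer.

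Pieces of mitochondrial DNA have also been copied into nuclear chromosomes, where 11 annotated pseudogenes match members over at least 100 bases at 95% identity or more. Of these, 7 lie side by side at chr1:24611535-24616197, on the minus strand and with letters 99% or more identical to their members, 3 lie on chromosome 2 and 1 on chromosome 13. A stretch of mt-Co2 (a complex IV subunit), bases 445 to 504 of the gene, is shown with its copies because the copy on chromosome 1 has the same letters and the copy on chromosome 2 does not. Capitals mark the 6 positions at which the chromosome 2 copy differs. That copy lacks 12 bases of mt-Co2 ahead of this stretch, so its bases 433 to 492 are shown. The stretches lie at chrM:7457-7516 on the plus strand, chr1:24615062-24615121 on the minus strand and chr2:22587471-22587530 on the minus strand of GRCm38, and are read from GENCODE M21 transcripts.
mt-Co2: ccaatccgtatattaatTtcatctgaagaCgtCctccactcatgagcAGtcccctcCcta
Gm28661: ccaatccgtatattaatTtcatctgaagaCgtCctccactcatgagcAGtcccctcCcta
Gm13341: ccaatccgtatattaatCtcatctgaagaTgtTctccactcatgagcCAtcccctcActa

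The counts of the copies can be set beside these sequences. Gm28661, the copy with no difference from mt-Co2 in this stretch, had 0.99 to 1.01 times the counts of mt-Co2 in every sample, and Gm13341 had 0.0492 to 0.171 times. The 5 chromosome 1 copies that match a member to within 3 bases of its full length (mt-Nd4l, mt-Nd3, mt-Co3, mt-Atp6 and mt-Co2) had between 0.959 and 1.03 times their member's counts over 74 samples. Every 50-base stretch of mt-Co2 occurs in a nuclear transcript of the annotation, against 51.1% of those of mt-Co1 and 62.2% of those of mt-Nd4. In 5 of the 15 long members (mt-Rnr1, mt-Nd1, mt-Atp8, mt-Nd6 and mt-Cytb) no such stretch does. How reads that match more than 1 gene were counted is not given in the sources used here. Levels are given as deposited and, where it bears on a result, with the chromosome 1 copies added.

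**Figure D1:**
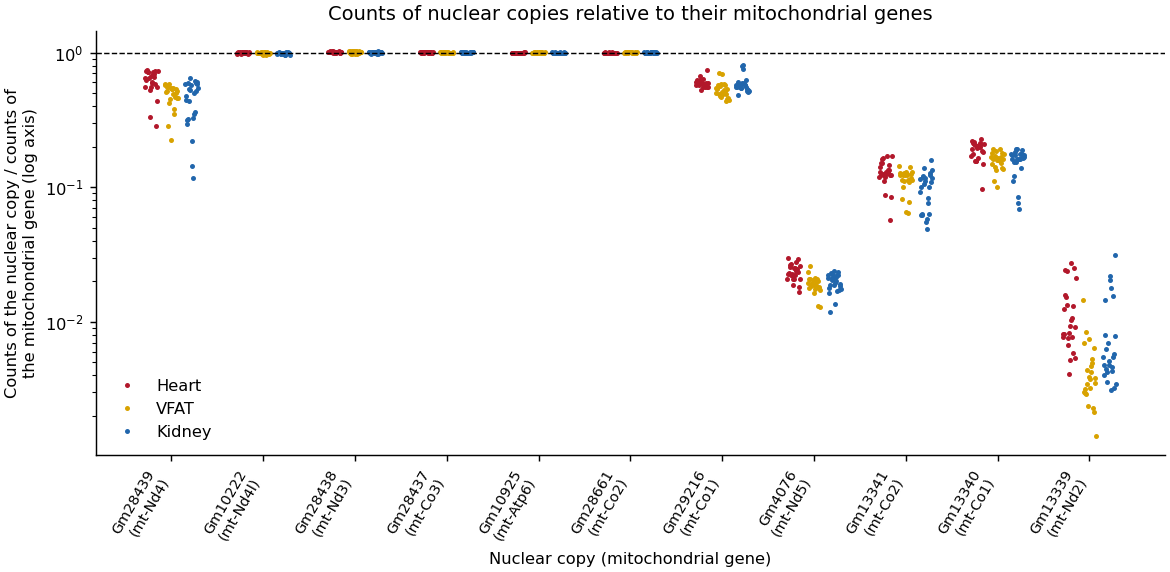
Counts of each of 11 nuclear copies divided by the counts of its mitochondrial gene, per sample, on a log axis, with heart in red, VFAT in yellow and kidney in blue. The 5 copies on chromosome 1 that match nearly the whole member sit on the dashed line at 1, and Gm13339, a partial copy of mt-Nd2, lies between 0.00143 and 0.0312.

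The total count per sample was 2803991 to 12986214 in Heart, 5666563 to 22287510 in VFAT and 1241590 to 16912788 in Kidney, the lowest being Kidney control cells 5. Summed markers of each tissue were highest in that tissue, in counts relative to the library total (CPM). The 6 cardiomyocyte markers summed to 23620 to 37360 CPM in Heart, at most 83.06 in VFAT and at most 332.9 in Kidney. The 6 adipocyte markers summed to 2469 to 17840 CPM in VFAT, at most 968.5 in Heart and at most 692.6 in Kidney. The 7 proximal tubule markers summed to 7502 to 19420 CPM in Kidney, at most 2638 in Heart and at most 674.3 in VFAT. Several samples also held transcripts of other tissues. Heart Sham 2 and 3 had summed proximal tubule markers of 915.7 and 2638 CPM, against 25.23 to 56.13 CPM in the other Sham hearts. VFAT Sham 1, 4 and 5 had summed epididymis markers (5 of 5 counted) of 15880, 9135 and 3916 CPM, against 142.6 and 1192 CPM in Sham 2 and 3, and VFAT Sham 3 had summed skeletal muscle markers of 8653 CPM. VFAT scrambled cells 1, 2 and 4 had summed skeletal muscle markers of 3713, 32840 and 23530 CPM and scrambled cells 3 had summed pancreas markers of 13490 CPM, so no sample of that arm was free of other tissue. Heart NaKtide cells 5, scrambled cells 4, control cells 1 and PNx 5 had summed atrial markers of 8067, 5682, 6045 and 4320 CPM, and Kidney Sham 3, the sum of 2 libraries, had summed cardiomyocyte markers of 332.9 CPM, against 2.92 to 7.32 CPM in the other Sham kidneys. The RNA length index (mean log2 CPM of the shortest 25% of nuclear genes minus that of the longest 25%) was 0.14, -0.03 and 0.14 in Kidney PNx 3, 4 and 5 and 0.22 and 0.23 in Kidney control cells 4 and 5, against -1.14 to -0.96 in Kidney Sham. Member counts and gene lists are also given without Heart Sham 2 and 3, without Kidney PNx 3, 4 and 5 and control cells 4 and 5, and without VFAT Sham 1, 4 and 5 and scrambled cells 2 and 4.

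Heart had the highest share of counts on the mitochondrial genome. The 37 members took a mean of 16.45% of the counts in Heart (8.72 to 21.2%, n = 25), 6.22% in VFAT (3.08 to 9.01%, n = 24) and 6.91% in Kidney (3.78 to 10.2%, n = 25). With the chromosome 1 copies added the means were 27.6%, 10.04% and 11.4%. In bulk tissue, fewer cells of a type and less RNA per cell cannot be told apart.

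The 15 long members, 13 messages and 2 rRNAs, were counted in all 76 libraries. By mean level per length the 4 highest kept the same order in the 3 tissues. Others changed places, and mt-Atp8 ranked 6 in Heart, 9 in VFAT and 11 in Kidney. The level per length was highest for the complex IV messages and mt-Atp6, of complex V: mt-Co2 averaged 39310 CPM per kb in Heart, 13250 in VFAT and 17010 in Kidney, followed in each tissue by mt-Co3, mt-Atp6 and mt-Co1. The other complex V message, mt-Atp8, averaged 7242 CPM per kb in Heart, 1903 in VFAT and 1866 in Kidney. mt-Co2 was the highest in 24 of 25 Heart, 23 of 24 VFAT and 20 of 25 Kidney samples. With the chromosome 1 copies added, these 4 messages kept that order of tissue means. mt-Cytb, the complex III subunit, averaged 7140 CPM per kb in Heart, 4059 in VFAT and 4114 in Kidney. Among complex I messages the level per length ran in Heart from 2923 CPM per kb for mt-Nd5 to 8627 for mt-Nd4, in VFAT from 1378 to 3097 and in Kidney from 1384 to 3266 for the same genes.

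**Figure D2:**
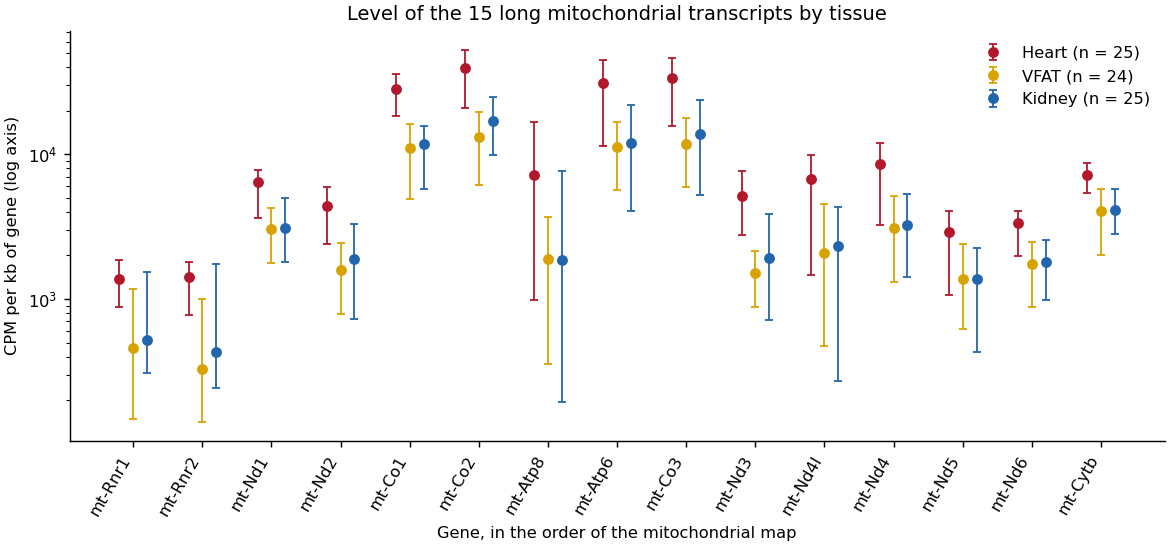
Level of the 15 long members in CPM per kb of gene on a log axis, with points for the mean over samples and bars from the lowest to the highest sample of each tissue (Heart n = 25, VFAT n = 24, Kidney n = 25). mt-Co2 has the highest mean in all 3 tissues and the 2 rRNAs the lowest, and every Heart mean lies above those of VFAT and Kidney.

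The rRNAs, which form the ribosome of the mitochondrion, had the lowest counts per length of the long members. Counts of rRNAs and tRNAs depend on how RNA was selected for the libraries, which is not described here. These levels, and the ratios with an rRNA below, therefore need not be those of the RNA in the tissue. mt-Rnr1 and mt-Rnr2 averaged 1373 and 1424 CPM per kb in Heart, 455.3 and 328.3 in VFAT and 519.3 and 430.4 in Kidney, below the mean of every message. Together they took 0.784 to 3.08% of the mitochondrial counts in every sample but Kidney control cells 5, the shallowest library, which had 11.2%. The tRNAs, the shortest members, held 7271 counts over all libraries. Of the 22 tRNA genes, 19 had at least 1 count, mt-Tf, mt-Tk and mt-Tr had none, and mt-Ts1 alone reached 100 counts in a library, with 5082 of the 7271. In the fit over all tissues 20 members passed edgeR's expression filter, the 15 long ones and 5 tRNAs.

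The members tested were higher in Heart than in either other tissue. All 20 tested were higher in Heart than in VFAT, against 31.0% of all 19180 genes (42.6% were lower), and all 20 were higher in Heart than in Kidney, against 37.9% (40.4% were lower) (edgeR's quasi-likelihood test, Benjamini-Hochberg adjusted p under 0.05). Over the 13 messages the median log2 differences were 2.02 and 1.66, against -0.17 and -0.049 over all genes. mt-Co1, the catalytic subunit of complex IV, averaged 54340 ± 11130 CPM in Heart, 14480 ± 4450 in VFAT and 17230 ± 3282 in Kidney (SD). The Heart samples (28040 to 79200 CPM) lay above all VFAT (5793 to 21730) and Kidney samples (10990 to 22540). Its log2 difference was 1.91 ± 0.12 (SE) for Heart over VFAT and 1.66 ± 0.11 for Heart over Kidney.

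Between members the size of the tissue difference varied. mt-Cytb differed least, by 1.35 ± 0.11 for Heart over VFAT and 1.17 ± 0.10 for Heart over Kidney, and mt-Nd6, the single message on the minus strand, by 1.5 ± 0.11 and 1.28 ± 0.11. mt-Co2 differed by 2.12 ± 0.12 and 1.59 ± 0.12, and mt-Nd3, a complex I subunit, by 2.32 ± 0.14 and 1.81 ± 0.14. The highest values were those of tRNAs with few counts, mt-Tm for Heart over VFAT (4.16 ± 0.53) and mt-Tl1 for Heart over Kidney (3.46 ± 0.31). VFAT and Kidney were closer to each other: 10 of 20 members were lower in VFAT, against 34.7% of all genes, none was higher (40.3% of all genes), and the median over the 13 messages was -0.23, against 0.068 over all genes. mt-Co2 was lower by this test (-0.53 ± 0.11, edgeR adjusted p = 3.84e-05), as was mt-Nd3 (-0.51 ± 0.14, adjusted p = 0.000654), while mt-Atp8 (0.00025 ± 0.29) and mt-Nd5 (-0.16 ± 0.16) did not pass.

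Ratios between members also differed by tissue. The mt-Rnr2/mt-Rnr1 count ratio averaged 1.73 ± 0.24 in Heart, 1.2 ± 0.19 in VFAT and 1.32 ± 0.17 in Kidney (SD). Heart was above both (permutation test with 100000 resamples on the log2 ratio, p = 2e-05, the smallest it can give, adjusted p = 5e-05 over 15 tests), and VFAT was below Kidney (permutation, adjusted p = 0.017). The mt-Nd1/mt-Cytb ratio averaged 0.752 ± 0.064 in Heart, 0.634 ± 0.093 in VFAT and 0.616 ± 0.080 in Kidney, again higher in Heart than in either (permutation, adjusted p = 5e-05). mt-Co1/mt-Nd1 averaged 7.15 ± 0.56 in Heart, 5.88 ± 1.17 in VFAT (permutation, adjusted p = 5e-05) and 6.38 ± 1.31 in Kidney (permutation, adjusted p = 0.00866). The mt-Rnr2/mt-Co1 ratio had a median of 0.0525 in Heart, 0.0296 in VFAT and 0.0307 in Kidney, and Heart was above VFAT (permutation, adjusted p = 5e-05) and Kidney (permutation, adjusted p = 0.000171). The mt-Nd6/mt-Nd5 ratio, of the minus-strand message to its plus-strand neighbour, had medians of 0.319, 0.355 and 0.348 and passed in none of its 3 tests (permutation, adjusted p = 0.0954 to 0.494). The ranges of the tissues overlapped in all 5 ratios. All ratios use counts as deposited, and the tests were not repeated with the copies added. For mt-Co1 its partial chromosome 1 copy Gm29216 had a median of 0.587 times its counts in Heart, 0.522 in VFAT and 0.561 in Kidney.

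Nuclear genes that work with the members differed between tissues in their own pattern. Over all 19180 genes, 31.0% were higher and 42.6% lower in Heart than in VFAT, 37.9% higher and 40.4% lower in Heart than in Kidney, and 40.3% higher and 34.7% lower in VFAT than in Kidney. Of 105 tested respiratory subunits encoded in the nucleus, 102 were higher and 2 lower in Heart than in VFAT (median log2 difference 1.64, against -0.17 over all genes). In Heart 92 were higher and 4 lower than in Kidney (0.77, against -0.049), and in VFAT 3 were higher and 97 lower than in Kidney (-0.90, against 0.068). The largest were muscle forms of complex IV subunits, with Cox6a2 higher in Heart than in VFAT by 10.1 ± 0.60 and than in Kidney by 8.99 ± 0.51 on the log2 scale. Of 82 mitochondrial ribosomal proteins, 67 were higher and 4 lower in Heart than in VFAT, 34 higher and 22 lower in Heart than in Kidney, which is near the share of all genes that were higher, and none higher and 68 lower in VFAT than in Kidney. Of 28 genes for processing and stability of mitochondrial RNA, 23 were higher and 2 lower in Heart than in VFAT, and 18 higher and 5 lower in Heart than in Kidney. Lrpprc, which stabilises mitochondrial messages, was higher in Heart than in VFAT by 2.13 ± 0.11 and lower in VFAT than in Kidney (-1.24 ± 0.11). All these values are log2 differences from the same edgeR fit.

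Across arms the share of mitochondrial counts was given no test, and single samples of a group varied widely. In Heart the members took 8.72, 16.0, 16.2, 19.8 and 15.2% of the counts in PNx, against 17.7, 12.9, 14.4, 16.7 and 20.4% in Sham. PNx 1 was the lowest Heart sample, and the groups overlapped. In VFAT they took 6.78, 4.28, 7.22, 7.02 and 7.71% in PNx, against 3.29, 7.66, 6.88, 3.08 and 4.90% in Sham. The 3 lowest Sham values belonged to Sham 1, 4 and 5, the samples with epididymis markers, and Sham 2 and 3 lay within the PNx range; the part of these markers in the difference was not tested. In Kidney they took 9.48, 7.01, 6.52, 4.42 and 5.42% in PNx, against 7.99, 6.90, 9.10, 9.02 and 7.76% in Sham. PNx 3, 4 and 5, the samples with a high length index, were below every Sham kidney, and PNx 1 was above them all.

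**Figure D3:**
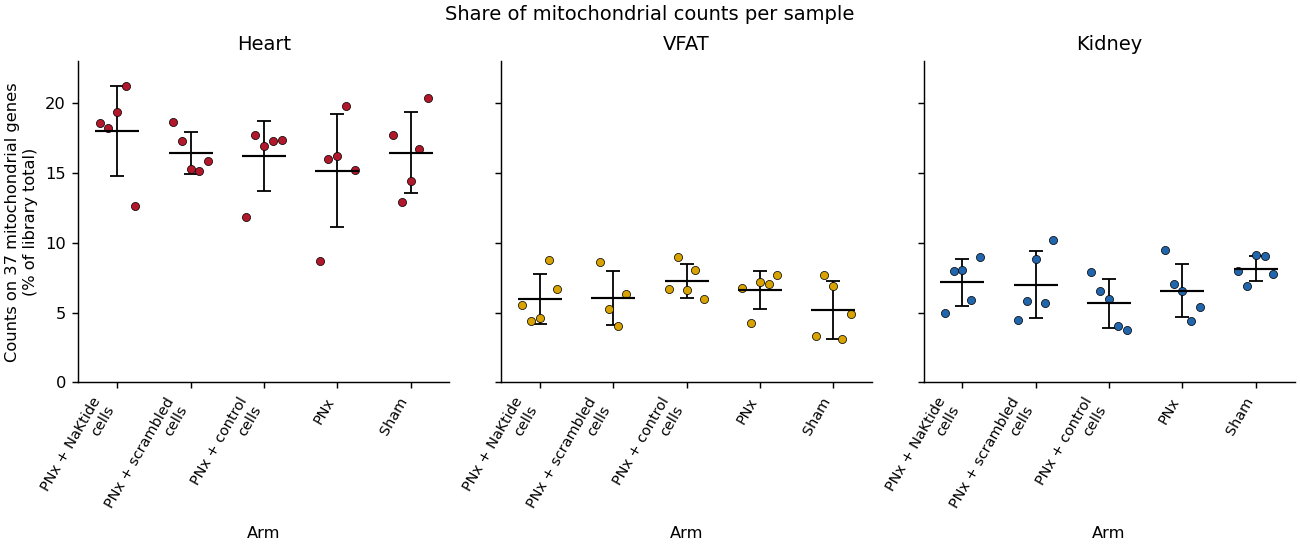
Counts on the 37 mitochondrial genes as a percentage of the library total, one point per sample, with lines for the mean and bars for the SD of each arm. Heart lies between 8.72 and 21.2% and VFAT and Kidney between 3.08 and 10.2%, and the arms overlap within each tissue.

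The shares with transplanted cells are given in the same way. In Heart they were 18.5, 18.2, 19.4, 21.2 and 12.6% with NaKtide cells, against 18.6, 17.3, 15.3, 15.2 and 15.8% with scrambled cells, and control cells gave a mean of 16.2 ± 2.48% (SD, n = 5). In VFAT they were 5.57, 4.38, 4.59, 8.78 and 6.66% with NaKtide cells, against 8.59, 5.23, 4.05 and 6.32% with scrambled cells, and control cells averaged 7.26 ± 1.25%. In Kidney they were 4.94, 8.01, 8.04, 5.88 and 8.97% with NaKtide cells, against 4.47, 5.80, 8.80, 5.72 and 10.2% with scrambled cells, and control cells averaged 5.66 ± 1.74%. The groups compared overlapped in each tissue.

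Whether loss of kidney mass changed mitochondrial transcripts was asked first in Heart, the organ affected in uremic cardiomyopathy. None of the 19 members that passed the expression filter was called between PNx and Sham by edgeR, against 0.126% of all 15091 genes (0.0133% higher and 0.113% lower); 2 had an unadjusted p under 0.05, and DESeq2 called 1, mt-Ts1. All 13 messages had log2 fold changes below 0, with a median of -0.28, against -0.0034 over all genes. mt-Co1 had 24390, 45930, 41730, 57030 and 39070 CPM in PNx, against 52790, 44080, 49900, 43250 and 53630 CPM in Sham. The groups overlapped, with PNx 1, which had summed neutrophil markers of 1320 CPM and a length index of -0.11, lowest and PNx 4 highest of the 10. The log2 fold change was -0.23 ± 0.19 (edgeR adjusted p = 0.574). mt-Cytb averaged 8080 ± 2160 CPM in PNx and 9950 ± 1620 CPM in Sham (-0.30 ± 0.18, edgeR adjusted p = 0.405). mt-Nd1, a complex I subunit, averaged 5880 ± 1930 in PNx and 7170 ± 909 in Sham (-0.28 ± 0.21, adjusted p = 0.505), mt-Nd6 averaged 1620 ± 528 and 1960 ± 457 (-0.28 ± 0.21, adjusted p = 0.517), and mt-Rnr2 averaged 2200 ± 525 and 2590 ± 419 (-0.24 ± 0.23, adjusted p = 0.637). mt-Co2 had the other unadjusted p under 0.05 (-0.53 ± 0.23, edgeR adjusted p = 0.252); it was looked at after its values were seen.

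mt-Ts1, the serine tRNA that stood out in Heart, lies on the minus strand at chrM:6870-6938 and shares its last 3 bases with the end of mt-Co1 on the opposite strand. Both are shown because reads of one strand cannot be told from the other where counting ignores strand, and the strand setting is not given in the sources used here. Capitals mark the 3 shared bases, which in mt-Co1 are its stop codon, and the mt-Co1 stretch lies at chrM:6843-6872 on the plus strand.
mt-Ts1: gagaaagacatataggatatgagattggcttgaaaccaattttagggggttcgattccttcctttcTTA
mt-Co1 last 30 bases: gaggaaccaacctatgtaaaagtaaaaTAA

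mt-Ts1 had 4.67, 7.89, 8.30, 21.9 and 7.85 CPM in PNx hearts, against 11.1, 83.2, 215.9, 7.99 and 15.1 CPM in Sham hearts. Only Sham 2 and 3, the samples with kidney transcripts, lay above the range of the other 8. These also had the highest length indices of the 25 hearts, 0.19 and 0.03, against -0.78 to -0.54 in the other Sham hearts, and the part of either in the result was not tested. Its log2 fold change was -2.68 ± 0.66 (edgeR adjusted p = 0.105). Without these samples no member was called or had an unadjusted p under 0.05 by edgeR. Of all 15598 genes 0% were called higher and 0% lower there, so the lack of calls is not particular to the members. DESeq2, which called mt-Ts1 with all samples, gave -0.19 ± 0.41 without Sham 2 and 3 (adjusted p = 0.982). mt-Ts1 was called when Sham 1, Sham 4 or Sham 5 was left out (edgeR adjusted p = 0.0284, 0.028 and 0.0324). The shares of all genes called in these fits are not given here.

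In VFAT, none of the 16 members tested was called between PNx and Sham by edgeR, against 13.0% of all 17552 genes (4.83% higher and 8.18% lower); 1 had an unadjusted p under 0.05, and DESeq2 called 0. All 13 messages had log2 fold changes above 0, with a median of 0.25, against 0.0077 over all genes. mt-Nd6 had 955.3, 719.1, 1217, 1156 and 1155 CPM in PNx, against 545.3, 991.2, 899.9, 417.6 and 528.7 CPM in Sham. The 3 Sham samples with epididymis markers were below all PNx samples, and Sham 2 and 3 lay within the PNx range. The log2 fold change was 0.62 ± 0.27 (edgeR adjusted p = 0.139). mt-Nd6 was called when Sham 2 was left out (0.80 ± 0.28, edgeR adjusted p = 0.0423), a fit for which the share of all genes called is not given here. mt-Co1 averaged 17700 ± 3490 CPM in PNx and 13700 ± 6610 in Sham (0.37 ± 0.32, adjusted p = 0.496), mt-Cytb 5120 ± 977 and 4110 ± 1970 (0.32 ± 0.30, adjusted p = 0.537), mt-Nd1 3060 ± 827 and 2920 ± 1010 (0.064 ± 0.28, adjusted p = 0.914), and mt-Rnr2 360 ± 58.4 and 404 ± 125 (-0.17 ± 0.36, adjusted p = 0.808). Without VFAT Sham 1, 4 and 5 and scrambled cells 2 and 4, a choice made after seeing the data, no member was called or had an unadjusted p under 0.05. Of all 18072 genes 0.188% were called higher and 1.46% lower. Of the 13 messages 12 had values below 0. Sham 2 and 3 alone remained in their arm. Summed epididymis markers were 142.6 CPM or more in every Sham sample, against at most 29.98 CPM in PNx. Sham 3 had summed skeletal muscle markers of 8653 CPM, and the part of these transcripts was not tested. mt-Nd6 was then at 0.13 ± 0.33 and mt-Co1 at -0.21 ± 0.33 (edgeR adjusted p = 0.954 and 0.914).

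In Kidney the log2 fold changes of the members ran from -1.99 to 0.55. None of the 16 tested was called between PNx and Sham by edgeR, against 16.8% of all 16307 genes (9.25% higher and 7.56% lower); 5 had an unadjusted p under 0.05, and DESeq2 called 1, mt-Atp8. Of the 13 messages 12 had log2 fold changes below 0, with a median of -0.54, against 0.053 over all genes, while mt-Co2, both rRNAs and mt-Ts1 had values above 0. mt-Nd1 had 4677, 2367, 2522, 1718 and 2061 CPM in PNx, against 3507, 3156, 4417, 4756 and 3584 CPM in Sham. PNx 2 to 5 were below every Sham kidney and PNx 1 was within the Sham range (-0.54 ± 0.25, edgeR adjusted p = 0.102). mt-Co1 had 23000, 17530, 20940, 13380 and 19160 CPM in PNx, against 18920, 16430, 20210, 21730 and 18670 CPM in Sham, and the groups overlapped (-0.03 ± 0.19, adjusted p = 0.922). mt-Rnr2 had 626.6, 417.4, 924.9, 431.4 and 990.2 CPM in PNx, against 456.4, 400.1, 538.6, 508.1 and 519.9 CPM in Sham, with PNx 1, 3 and 5 above all Sham kidneys (0.48 ± 0.47, adjusted p = 0.431). mt-Cytb averaged 4430 ± 1290 CPM in PNx and 5590 ± 619 in Sham (-0.34 ± 0.19, adjusted p = 0.165), and mt-Nd6 averaged 990 ± 367 and 1090 ± 188 (-0.13 ± 0.24, adjusted p = 0.687).

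The lowest log2 fold changes in Kidney were those of mt-Atp8, mt-Nd4l and mt-Nd5, which are described here after their values were seen. mt-Atp8, a small complex V subunit whose message is shared with mt-Atp6, had 539.2, 256.8, 122.8, 66.0 and 46.95 CPM in PNx, against 620.2, 343.0, 1579, 1136 and 407.3 CPM in Sham. PNx 2 to 5 were below every Sham kidney (-1.99 ± 0.70, edgeR adjusted p = 0.0517). mt-Atp6, on the same message, had 11600, 7636, 5881, 3731 and 5610 CPM in PNx, against 11010, 8567, 13400, 12970 and 9323 CPM in Sham, as deposited. There too PNx 2 to 5 were below every Sham kidney. mt-Nd4l, a complex I subunit, had 963.5, 854.6, 240.6, 90.34 and 94.45 CPM in PNx, against 1039, 848.5, 932.1, 1163 and 860.5 CPM in Sham, and PNx 3, 4 and 5 were below all other samples (-1.11 ± 0.55, adjusted p = 0.124). mt-Nd5 had 3514, 2490, 1710, 779.5 and 1018 CPM in PNx, against 3195, 2802, 3494, 4045 and 2722 CPM in Sham, with PNx 3, 4 and 5 again lowest (-0.77 ± 0.34, adjusted p = 0.0895).

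These values moved with single samples. Without Kidney PNx 1, edgeR called 8 members, all lower in PNx: mt-Nd1, mt-Nd2, mt-Nd4, mt-Nd4l, mt-Nd5, mt-Cytb, mt-Co3 and mt-Atp8. Without PNx 2 it called 2, mt-Atp8 and mt-Nd4l. The share of all genes called was 16.8% with all samples kept. Without PNx 1 or PNx 2 it is not given here, so these counts of members cannot be read against it. Without PNx 3, 4 and 5 and control cells 4 and 5 edgeR called no member, against 0.301% of all genes higher and 0.271% lower. PNx 1 and 2 alone remained in their arm. No member had an unadjusted p under 0.05 there, with mt-Atp8 at -1.04 ± 0.85 and mt-Nd1 at -0.15 ± 0.29. DESeq2 called none without them, with mt-Atp8 at -1.05 ± 0.88 (adjusted p = 0.885). With the length index as a covariate none was called, mt-Atp8 was at -1.37 ± 0.61 and mt-Rnr2 at -0.18 ± 0.43. PNx 3 also had summed neutrophil markers of 2303 CPM and the lowest summed proximal tubule markers, 7502 CPM, against 16830 to 19420 CPM in Sham kidneys; the part of these in the result was not tested.

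**Figure D4:**
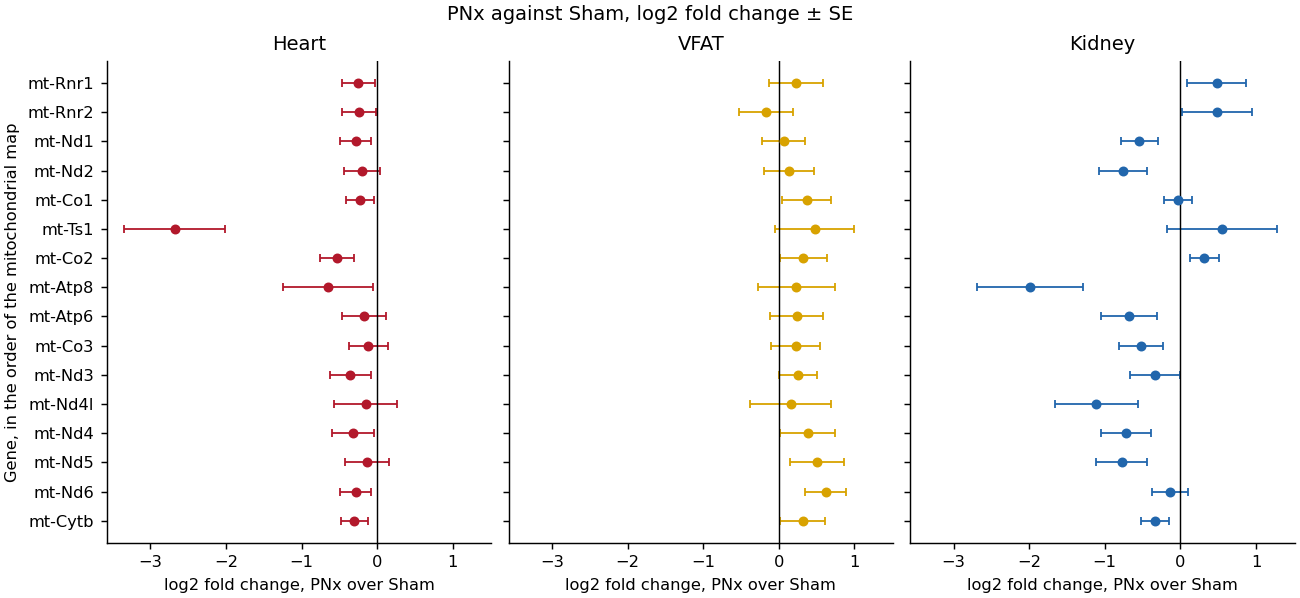
Log2 fold change of PNx over Sham with its SE for the 15 long members and mt-Ts1, in genome order, in Heart, VFAT and Kidney (n = 5 samples per group). No member passed an adjusted p of 0.05; the Heart values lie below 0, with mt-Ts1 at -2.68, all VFAT values but that of mt-Rnr2 lie above 0 with all samples kept (12 of 13 messages are below 0 without Sham 1, 4 and 5), and the Kidney values spread from -1.99 for mt-Atp8 to 0.55 for mt-Ts1.

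The deposited counts also hold a view along the mt-Nd4 message. The copy Gm28439 has the letters of the first 876 bases of mt-Nd4 and lacks its last 502. If reads in the shared part were split evenly between gene and copy, in the way the counts lie for the 5 chromosome 1 copies that match nearly the whole member, counts per base can be set side by side for the far (3′) and the near (5′) part, and a ratio of 1 means even coverage. Its median was 0.479 in Heart, 0.829 in VFAT and 0.873 in Kidney. It was above 2 in 1 Heart, 2 VFAT and 4 Kidney samples. In Kidney it was 0.784, 0.656, 3.12, 5.16 and 6.58 in PNx, against 0.606, 0.811, 0.569, 0.631 and 0.739 in Sham. PNx 3, 4 and 5, which have the high length index, had the highest values of the study, with VFAT PNx 2 next at 3.05, and PNx 1 and 2 lay within the Sham range. In VFAT it was 0.727, 3.05, 0.751, 0.757 and 0.739 in PNx, against 0.857, 0.743, 0.814, 1.02 and 1.01 in Sham, and in Heart 1.76, 0.706, 0.436, 0.583 and 0.606 in PNx, against 0.613, 2.18, 1.11, 0.703 and 0.330 in Sham.

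The mt-Nd6/mt-Nd5 ratio was high in the same samples. In Kidney it was 0.370, 0.302, 0.851, 0.783 and 0.815 in PNx, against 0.316, 0.318, 0.348, 0.332 and 0.356 in Sham. PNx 3, 4 and 5 were far above all Sham kidneys, PNx 1 was just above them and PNx 2 below them (exact permutation test, p = 0.0873, adjusted p = 0.3274 over 30 tests; the smallest p the design allows is 0.007937). In VFAT PNx 2, the sample with the high mt-Nd4 ratio, it was 0.680, against 0.321 to 0.360 in the other PNx samples and 0.297 to 0.392 in Sham. In Heart Sham 2 it was 0.655, against 0.279 to 0.495 in the other Sham hearts and 0.311 to 0.431 in PNx hearts. The 2 genes lie on opposite strands and overlap by 14 bases at their ends, and where counting ignores strand, reads of mt-Nd6 cannot be told apart from RNA of the opposite strand.

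**Figure D5:**
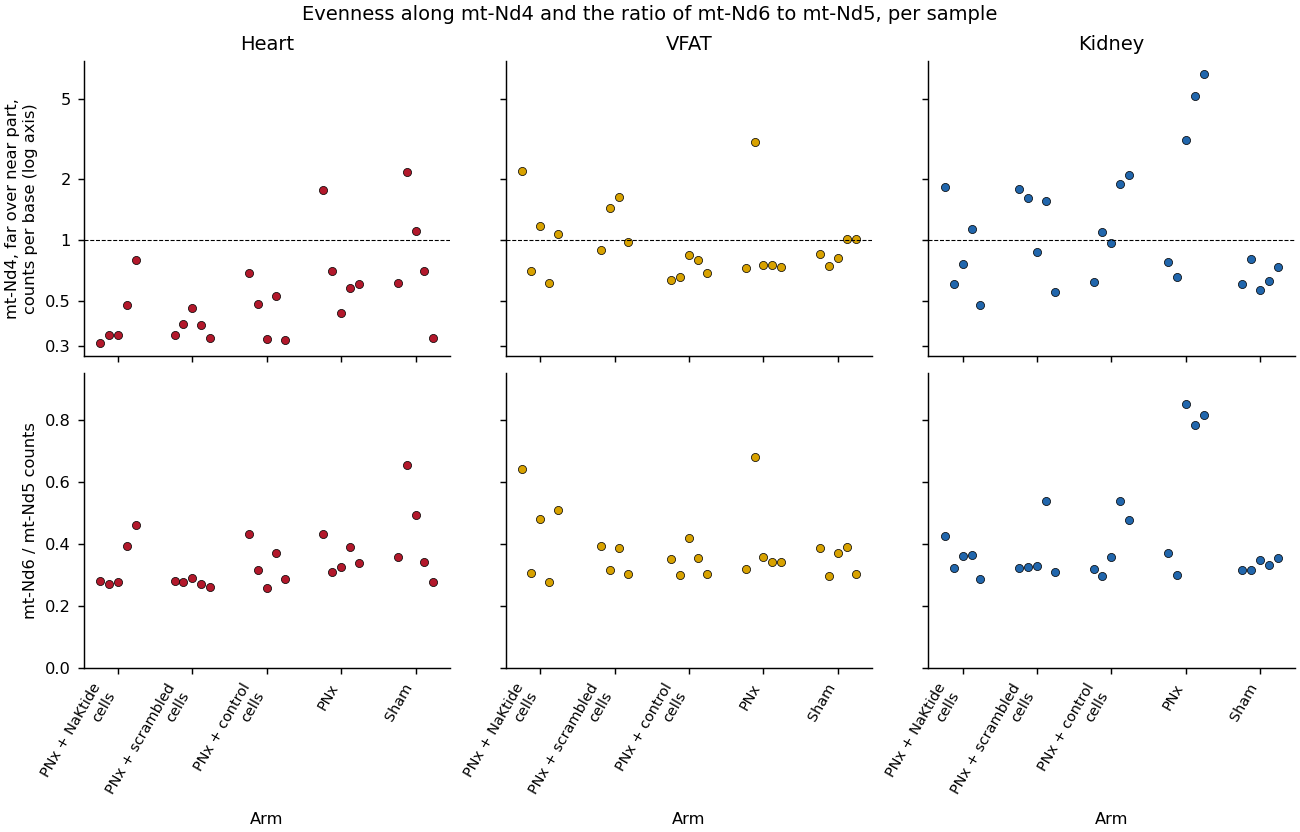
Upper row: counts per base in the far part of mt-Nd4 over those in the near part on a log axis, with a dashed line at 1 for even coverage. Lower row: mt-Nd6 over mt-Nd5 counts; each point is a sample, by tissue and arm. Kidney PNx 3, 4 and 5 have the highest values in both rows (3.12 to 6.58 above, 0.783 to 0.851 below), and VFAT PNx 2 comes next (3.05 above, 0.680 below).

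Other ratios between members were tested between arms. None of the 30 ratio tests over PNx against Sham and NaKtide against scrambled cells passed after adjustment (exact permutation tests, lowest adjusted p = 0.2381). They use counts as deposited, without the copies. In VFAT the mt-Rnr2/mt-Rnr1 ratio was 1.03, 0.9998, 1.02, 1.03 and 1.09 in PNx, against 1.59, 1.11, 1.35, 1.79 and 1.25 in Sham. Every PNx value was below every Sham value (exact permutation, two-sided p = 0.007937, the smallest possible, adjusted p = 0.2381). Summed epididymis markers were 142.6 CPM or more in every Sham sample and 29.98 CPM or less in PNx. Sham 3 also had summed skeletal muscle markers of 8653 CPM. The part of these transcripts in the ratio was not tested. In Kidney mt-Co1/mt-Nd1 averaged 7.54 ± 1.63 in PNx and 4.99 ± 0.39 in Sham (exact permutation p = 0.03175, adjusted p = 0.2381). In VFAT mt-Co1/mt-Nd1 averaged 5.99 ± 0.97 in PNx and 4.52 ± 0.83 in Sham (exact permutation p = 0.02381), and mt-Nd1/mt-Cytb averaged 0.587 ± 0.071 and 0.751 ± 0.112 (exact permutation p = 0.01587, adjusted p = 0.2381 for both). Sham 1 and 4, with the most epididymis transcripts, had mt-Co1/mt-Nd1 ratios of 3.51 and 3.73. The other Sham samples had 4.99 to 5.28 and PNx 5.01 to 7.61. For mt-Nd1/mt-Cytb, Sham 1 and 4 had 0.856 and 0.882, the other Sham samples 0.624 to 0.704 and PNx 0.465 to 0.644. The part of these transcripts was not tested.

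Whether the PNx effect differed by tissue was tested in the fit over all groups. For Heart minus Kidney 1 of 20 members was called lower, against 8.28% of all 19180 genes, and for Heart minus VFAT 1 was called lower, against 3.89%; none was called higher, against 3.76% and 5.52%. Over both directions 12.0% and 9.41% of genes were called. Both calls were mt-Ts1 (-3.09 ± 0.91, edgeR adjusted p = 0.0255, and -3.08 ± 0.95, adjusted p = 0.0292), the gene that was high in Heart Sham 2 and 3. Without Heart Sham 2 and 3, Kidney PNx 3, 4 and 5 and Kidney control cells 4 and 5 it was at -0.24 (adjusted p = 1) and -0.64 (adjusted p = 0.693), and no member was called. For VFAT minus Kidney none was called, against 11.7% of all genes, with 6 at an unadjusted p under 0.05. All 13 messages had values above 0 there, with mt-Nd5 at 1.31 ± 0.50 (edgeR adjusted p = 0.0712), mt-Atp8 at 2.24 ± 0.92 (adjusted p = 0.0982) and mt-Nd6 at 0.82 ± 0.34 (adjusted p = 0.107). Single samples moved these counts. For Heart minus Kidney no member was called without Heart Sham 2, Heart Sham 3 or Kidney PNx 3. For Heart minus VFAT none was called without Heart Sham 2 or 3, Heart PNx 1, or VFAT Sham 1 or 4, 2 were without Heart PNx 4 and 4 without VFAT Sham 2. For VFAT minus Kidney 6 were called without Kidney PNx 1, 5 without VFAT Sham 2, 3 without VFAT PNx 2 and 1 without Kidney PNx 2. The shares of all genes called with 1 sample left out are not given here, so these counts cannot be read against them. DESeq2 was not run on these differences.

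The comparison of NaKtide with scrambled cells asked whether NaKtide itself changed the members after PNx. None was called in any tissue by edgeR, against 0.0% of all genes in Heart, 2.36% in VFAT (0.239% higher and 2.12% lower) and 0.0% in Kidney. None had an unadjusted p under 0.05, and DESeq2 called 0 in each. In Heart 11 of 13 messages had values above 0 (median 0.16, against -0.021 over all genes). mt-Co1 had 48380, 46480, 49510, 63980 and 31390 CPM with NaKtide cells, against 46090, 46100, 38130, 34190 and 38370 CPM with scrambled cells. NaKtide cells 1 to 4 were above every scrambled sample and NaKtide cells 5 below them all (0.24 ± 0.19, edgeR adjusted p = 0.725). NaKtide cells 5 had summed atrial markers of 8067 CPM, against 9.49 to 45.07 CPM in NaKtide cells 1 to 4, and scrambled cells 4, the lowest scrambled heart, had 5682 CPM. Without the 4 hearts with atrial markers, left out after seeing the data, no member was called, 1 had an unadjusted p under 0.05, and mt-Co1 was at 0.30 ± 0.18 (edgeR adjusted p = 0.975). The share of all genes called without these hearts is not given here. mt-Cytb (0.15 ± 0.18), mt-Nd1 (0.14 ± 0.20), mt-Nd6 (0.14 ± 0.21) and mt-Rnr2 (0.21 ± 0.23) had edgeR adjusted p-values of 0.767 to 0.828. In VFAT 12 of 13 messages were below 0 (median -0.21, against 0.0053), with mt-Co1 at 15500 ± 5650 CPM with NaKtide cells and 19600 ± 5190 with scrambled cells (-0.34 ± 0.34, adjusted p = 0.676). mt-Cytb was at -0.24 ± 0.32, mt-Nd1 at -0.21 ± 0.30, mt-Nd6 at -0.054 ± 0.29 and mt-Rnr2 at 0.36 ± 0.39 (edgeR adjusted p = 0.701 to 0.958). Without VFAT scrambled cells 2 and 4 and Sham 1, 4 and 5 none was called or had an unadjusted p under 0.05, with mt-Co1 at -0.35 ± 0.33 and mt-Rnr2 at 0.74 ± 0.48 (edgeR adjusted p = 0.761 and 0.594). Of all 18072 genes 0% were called higher and 0.205% lower there. The scrambled samples kept there, 1 and 3, hold the skeletal muscle and pancreas transcripts given above, whose part was not tested. In Kidney the median over messages was 0.028, against 0.0088 over all genes, and mt-Co1 averaged 17500 ± 2420 CPM with NaKtide cells and 18700 ± 4560 with scrambled cells (-0.098 ± 0.19, adjusted p = 0.915). The other named members there lay between -0.27 ± 0.47 for mt-Rnr2 and 0.091 ± 0.25 for mt-Nd1 (edgeR adjusted p = 0.902 to 0.994).

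The remaining 3 comparisons called no member in any tissue by edgeR. For NaKtide cells against PNx the background was 0.0% in Heart, VFAT and Kidney, with 1 member in each at an unadjusted p under 0.05 and a median over messages of 0.33, -0.23 and 0.22. For scrambled against control cells it was 0.0% in Heart, 2.41% in VFAT and 0.0123% in Kidney, with 0, 0 and 1 members at an unadjusted p under 0.05 and medians of 0.02, -0.20 and 0.11. For control cells against PNx it was 0.0% in each tissue, with 0, 1 and 2 members at an unadjusted p under 0.05 and medians of 0.069, 0.145 and -0.0048. DESeq2 called 1 member in these 9, mt-Ts1 in Kidney scrambled against control cells (-2.60 ± 0.69, adjusted p = 0.0421), where control cells 5 had 109.9 CPM and control cells 4 had 29.1 CPM, against 1.08 to 12.7 CPM with scrambled cells. Without control cells 4 and 5 and PNx 3, 4 and 5 it was at 0.20 ± 0.51 by DESeq2 (adjusted p = 0.865). These comparisons share samples, so their values are not independent.

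The nuclear partners of the members were examined in Kidney, where 9.25% of all genes were called higher and 7.56% lower in PNx than in Sham. Of 105 respiratory subunits encoded in the nucleus, 5 were called higher and 1 lower, which is below both shares, with a median log2 fold change of 0.73 and 95 above 0, against a median of 0.053 over all genes and -0.54 over the 13 mitochondrial messages. The largest were Cox6b2 (1.75 ± 0.54), Ndufa4l2 (1.62 ± 0.41) and Cox4i2 (1.53 ± 0.52), of which Ndufa4l2 and Cox4i2 are forms known for their induction at low oxygen. Of 82 mitochondrial ribosomal proteins 12 were called higher and 0 lower, with a median of 0.56. Of 20 genes for transcription and replication of the mitochondrial genome 3 were called lower, Lig3 (-0.79 ± 0.20), the transcription factor Tfb2m (-0.70 ± 0.18) and Mterf3 (-0.64 ± 0.20), and of 10 regulators of biogenesis 2 were, Ppara (-1.47 ± 0.41) and Gabpa (-0.88 ± 0.28).

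These list values changed without the samples of high length index (0.14, -0.03 and 0.14 in Kidney PNx 3, 4 and 5, where Sham kidneys had -1.14 to -0.96). The index is computed from the levels of short and long nuclear genes, and genes of these lists can be among them. Leaving out samples by this index is therefore no independent check of the lists. PNx 1 and 2 alone remained in their arm, so fewer calls can also come from fewer samples. Without PNx 3, 4 and 5 and control cells 4 and 5, edgeR called 0.301% of all genes higher and 0.271% lower, and 0 genes of these 4 lists. The nuclear respiratory subunits then had a median of -0.0013 with 52 of 105 above 0, and the ribosomal proteins a median of 0.027. Ndufa4l2 was at 0.69 ± 0.32 and Ppara at -0.62 ± 0.33 (edgeR adjusted p = 0.54 and 0.664). In the difference of the PNx effect, Heart minus Kidney, 53 of 105 nuclear subunits and 29 of 82 ribosomal proteins were called lower and none higher, against 8.28% of all genes lower and 3.76% higher. Without Heart Sham 2 and 3 and the same Kidney samples 0 of 20043 genes were called in that difference.

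In Heart no gene of these lists was called between PNx and Sham by edgeR, and the nuclear respiratory subunits had a median of -0.39, with 8 of 105 above 0. Without Heart Sham 2 and 3 the median was 0.0064 and 53 were above 0. In VFAT, where 8.18% of all genes were called lower and 4.83% higher, 3 nuclear respiratory subunits were called lower in PNx, a smaller share. They were Cox6a2 (-7.33 ± 1.96), Cox7a1 (-2.45 ± 0.75) and Atp5g1 (-1.31 ± 0.39), of which Cox6a2 and Cox7a1 are muscle forms; skeletal muscle markers summed to 8653 CPM in Sham 3, against 8.13 to 85.5 CPM in the other Sham samples and 11.1 to 23.6 CPM in PNx. Of the genes that make mitochondrial DNA and RNA there, Polg2, a subunit of the DNA polymerase, was called higher (0.85 ± 0.22) and Lig3 lower (-0.77 ± 0.23), and the ribosomal protein Mrpl37 was lower (-1.95 ± 0.41). Of 10 biogenesis regulators 1 was called lower, Esrrb (-3.29 ± 0.64), and of 27 translation factors and tRNA synthetases 1, Nars2 (-0.955 ± 0.221). Of 28 genes for processing and stability of mitochondrial RNA 1 was called higher, Hsd17b10 (0.764 ± 0.252). Without VFAT Sham 1, 4 and 5 and scrambled cells 2 and 4, Cox6a2 was still called (-8.66 ± 1.44, edgeR adjusted p = 0.00466), with Sham 3 kept. Esrrb was also still called in the same fit (-2.83 ± 0.67, edgeR adjusted p = 0.0401), and the other genes named here for VFAT were not. Of all genes 0.188% were called higher and 1.46% lower there. VFAT Sham 2 and 3 alone remained in their arm, and the part of the skeletal muscle transcripts of Sham 3 in these values was not tested.

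For NaKtide against scrambled cells 1 gene of these lists was called in VFAT, Cox6a2 (-8.38 ± 1.64), which is high in the scrambled samples with skeletal muscle markers, and none in Heart or Kidney. Without the same VFAT samples it was at -5.29 ± 1.17 (edgeR adjusted p = 0.0964). All adjusted p-values here are from edgeR with Benjamini-Hochberg adjustment over all genes of a comparison.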

How the data were processed

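Total RNA of flash-frozen heart, visceral fat and kidney was sequenced from both ends of each fragment, 50 bases a read, per the labels' protocols. The authors deposited whole-number counts per gene, which were used for every result. The authors also deposited normalised counts (each library's counts divided by 1 size factor, here called a signal) and FPKM values, which were not used. HISAT2 2.1.0, Trimmomatic 0.38, build GRCm38 and DESeq2 1.20.0 and 1.20.1 are named in the submitters' processing notes, with no role or order; the counting tool is not given in the sources used here, nor its strand setting or treatment of reads with several matches.

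The 76 libraries were grouped by their labels into 74 samples, since a second library of number 3 in Kidney Sham and in VFAT scrambled cells was added to its partner. Counts were fitted with edgeR 4.0.16 in R 4.3.3 (quasi-likelihood test, TMM scaling, filterByExpr, Benjamini-Hochberg adjustment over all genes of a comparison, called at adjusted p under 0.05), with the 5 arms of a tissue in 1 fit, and with all 15 groups in 1 fit for tissues and for differences of the PNx effect, where samples of different tissues were treated as independent. CPM in arm comparisons uses TMM library sizes within a tissue, tissue CPM uses those over all tissues, and CPM per kb and summed markers use library totals. Ratios of 2 genes were compared as log2 of counts plus 0.5 with two-sided exact permutation tests over samples (100000 resamples between tissues). Log2 fold changes are given ± SE and means ± SD. The scripts were tested on simulated data.

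Named members are mt-Co1, mt-Cytb, mt-Nd1, mt-Nd6 and mt-Rnr2, any called member, and for tissues the lowest adjusted p and the highest and lowest differences; other members are named where said. The members, lists and tests were chosen with earlier results of these data known. DESeq2 1.42.0, other scalings and filters, a replicate block, the length index as covariate, and leaving out samples were tried as alternatives. Adding the chromosome 1 copies, leaving out VFAT Sham 1, 4 and 5 and scrambled cells 2 and 4 or the 4 hearts with atrial markers, and the gene lists and DESeq2 without the doubted samples were chosen after seeing the data.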

Additional observations from a re-analysis of the deposited data

Results flagged for a closer look

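Of 156 groups of 4 or 5 samples examined, 16 held a sample whose distance to its nearest neighbour was large for the range of its group (Dixon's criterion); chance gives about 1 in 20. VFAT PNx 2 accounted for 5 of them. Its share of mitochondrial counts was 4.28%, against 6.78 to 7.71% in the other PNx samples of VFAT, its mt-Cytb level 3430 CPM against 5160 to 5830 CPM, and its mt-Nd1 level 1590 CPM against 3320 to 3630 CPM. Its mt-Nd4 far over near ratio was 3.05, against 0.727 to 0.756, and its mt-Nd6/mt-Nd5 ratio 0.68, against 0.321 to 0.36. Its length index was -0.32, against -1.47 to -1.25 in the other 4, and the part of this in the values was not tested.

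In Heart, NaKtide cells 5 had an mt-Rnr2 level of 1080 CPM, against 2510 to 3010 CPM in the other NaKtide samples, and summed atrial markers of 8067 CPM, against 9.49 to 45.07 CPM. Control cells 1 had a share of 11.8%, against 16.9 to 17.7%, and summed atrial markers of 6045 CPM, against 18.73 to 390.2 CPM. The part of the atrial transcripts was not tested. PNx 1 had an mt-Nd4 far over near ratio of 1.76, against 0.436 to 0.706, and PNx 4 had an mt-Ts1 level of 21.9 CPM, against 4.67 to 8.3 CPM. In VFAT, NaKtide cells 4 had an mt-Rnr2 level of 1580 CPM, against 308 to 575 CPM, NaKtide cells 1 an mt-Co1/mt-Nd1 ratio of 8.4, against 5.03 to 5.75, and scrambled cells 4 an mt-Rnr2/mt-Co1 ratio of 0.0449, against 0.0193 to 0.0235. In Kidney, PNx 1 had an mt-Nd1 level of 4680 CPM, against 1720 to 2520 CPM, and PNx 3 an mt-Ts1 level of 11 CPM, against 4.16 to 5.89 CPM. NaKtide cells 1 had an mt-Rnr2/mt-Co1 ratio of 0.0402, against 0.0301 to 0.0312, and scrambled cells 4 an mt-Nd6/mt-Nd5 ratio of 0.538, against 0.311 to 0.331.

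The PNx effect on mt-Ts1 differed between tissues by -3.09 for Heart minus Kidney and -3.08 for Heart minus VFAT on the log2 scale (edgeR adjusted p = 0.0255 and 0.0292), and neither was called without the samples named beside these values in the results.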

How the results depend on the processing

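Depth limits the tRNAs most, with 7271 counts over all libraries, and the shallowest library, Kidney control cells 5, had 1241590 counts. The member counts of the arm comparisons, 0 by edgeR in each of 15, were 0 under every alternative run but these. DESeq2 called 1 member in Heart PNx against Sham, 1 in Kidney PNx against Sham and 1 in Kidney scrambled against control cells, and 0 in each without the doubted samples. With the second library of Kidney Sham 3 kept as a sample of its own, edgeR called 2 in Kidney PNx against Sham, mt-Nd2 and mt-Atp8; the first of its 2 libraries had summed cardiomyocyte markers of 698.5 CPM and the second 1.97 CPM. Leaving out 1 sample at a time gave 0 to 1 members in Heart, 0 to 1 in VFAT and 0 to 8 in Kidney PNx against Sham. For the differences of the PNx effect it gave 0 to 1 (Heart minus Kidney), 0 to 6 (VFAT minus Kidney) and 0 to 4 (Heart minus VFAT), and without the doubted samples of Heart and Kidney named in the results the counts were 0, 0 and 0. The shares of all genes called with the second library kept apart or with 1 sample left out are not given here. The cause of these changes in the member counts was not tested.

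Adding the chromosome 1 copies raised the mean share of mitochondrial counts to 30.5, 27.4, 27.3, 25.3 and 27.5% in Heart for NaKtide cells, scrambled cells, control cells, PNx and Sham in this order, to 9.72, 9.74, 11.8, 10.6 and 8.23% in VFAT, and to 11.8, 11.6, 9.18, 11.1 and 13.3% in Kidney, since the counts of the copies are added.

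Replicate numbers were not treated as pairs, and whether they pair the samples was not tested. In no comparison were the correlations of all same-numbered samples above 0.1, and in Kidney PNx against Sham they ran from -0.241 to 0.173. Their mean was highest in Kidney control cells against PNx, 0.375 against -0.0931 for samples of other numbers. It was lowest in VFAT NaKtide cells against PNx, -0.231 against 0.0398. In Heart control cells against PNx it was 0.181 against -0.0351. Samples of the same number in different tissues were not compared. With the replicate block edgeR called 0 members in each arm comparison, and mt-Ts1 alone in the Heart minus Kidney (-3.12, adjusted p = 0.0337) and Heart minus VFAT differences of the PNx effect. With the block mt-Nd6 in Kidney NaKtide against scrambled cells was at 0.0151.

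Signs of log2 fold changes that did not pass a test turned in these cases, and the cause was not tested. In Kidney PNx against Sham, mt-Co1 was at 0.126 with the length index as covariate, 0.126 with the copies added and 0.0723 (edgeR) or 0.0708 (DESeq2) without the doubted samples, and mt-Rnr2 was at -0.179 with the length index. In Kidney NaKtide against scrambled cells the length index gave -0.0172 for mt-Cytb, -0.0632 for mt-Nd1 and 0.122 for mt-Rnr2, and mt-Nd6 was at 0.0135 with no expression filter and 0.0113 with only those 2 arms fitted. In VFAT PNx against Sham mt-Nd1 was at -0.0146 with the length index, and without VFAT Sham 1, 4 and 5 and scrambled cells 2 and 4, left out after seeing the data, mt-Co1 was at -0.207, mt-Cytb at -0.244 and mt-Nd1 at -0.372. In VFAT NaKtide against scrambled cells mt-Nd6 was at 0.0095 with no filter, 0.0135 with 2 arms fitted and 0.0279 with the second library left out. Without the doubted samples the PNx effect differed by 0.462 for mt-Te, -0.467 for mt-Nd4l and -0.109 for mt-Atp8 (Heart minus Kidney), 0.189 for mt-Tl1 (VFAT minus Kidney), and -0.0115 for mt-Tn (Heart minus VFAT). mt-Ts1, which was called with all samples, kept its sign without them, at -0.24 (Heart minus Kidney) and -0.641 (Heart minus VFAT), and was no longer called.

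Leaving out 1 sample at a time turned these signs. Kidney PNx against Sham gave -0.142 to 0.0691 for mt-Co1. Kidney NaKtide against scrambled cells gave -0.204 to 0.0145 for mt-Co1, -0.0784 to 0.136 for mt-Cytb, -0.0502 to 0.264 for mt-Nd1 and -0.177 to 0.124 for mt-Nd6. VFAT PNx against Sham gave -0.0497 to 0.249 for mt-Nd1, and VFAT NaKtide against scrambled cells -0.172 to 0.118 for mt-Nd6 and -0.191 to 0.713 for mt-Rnr2. The differences of the PNx effect ran from -1.65 to 0.356 for mt-Tl1 (VFAT minus Kidney), and from -0.198 to 0.109 for mt-Rnr2 and -0.547 to 1.67 for mt-Tn (Heart minus VFAT). Log2 differences of ratios ran for mt-Rnr2/mt-Rnr1 from -0.0401 to 0.109 (Heart PNx against Sham), -0.108 to 0.006 (Kidney PNx against Sham) and -0.0417 to 0.0932 (VFAT NaKtide against scrambled cells). For mt-Rnr2/mt-Co1 they ran from -0.0486 to 0.0623 (Heart PNx against Sham) and -0.145 to 0.0394 (Heart NaKtide against scrambled cells), and for mt-Nd6/mt-Nd5 from -0.102 to 0.116 (Kidney NaKtide against scrambled cells) and -0.0284 to 0.243 (VFAT PNx against Sham). For mt-Nd1/mt-Cytb they ran from -0.0658 to 0.0618 (Heart PNx against Sham), -0.0426 to 0.0458 (Heart NaKtide against scrambled cells) and -0.00795 to 0.127 (VFAT NaKtide against scrambled cells).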
